A study of Mus musculus with 14 samples.

Results

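The genes described here carry the response of the ventricle to noradrenaline and adrenaline: the adrenergic receptors Adrb1, Adra1a and Adra1b, the G protein gene Gnas, the adenylyl cyclases Adcy5 and Adcy6, and the cyclic nucleotide phosphodiesterases Pde3a, Pde4b and Pde4d. These 9 genes were taken by symbol from a table of counts for 47642 annotated genes, by a rule that uses no measured value. They were, however, chosen with earlier results of these data known. They were compared between left ventricles of 7 male mice with a gene trap in Uty (UtyGT) and 7 isogenic wild-type males (WT), all 40 days old, with 1 library per mouse. Both genotypes carried the 129P2/OlaHsd chromosome Y on a C57BL/6J background. The UtyGT mice also carried Uty Gt(XS0378)Wtsi, a trap in an intron of Uty that came from a single line of E14Tg2a.4 embryonic stem cells and is present in every cell of the animal. Uty encodes a paralog of the histone demethylase UTX. The trap is not a model of Uty loss alone, since the neighboring Ddx3y was also lower (log2 fold change -2.60 ± 0.21, adjusted p = 1.77e-06).

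In the heart, the beta-1 receptor encoded by Adrb1 activates the stimulatory G protein alpha subunit encoded by Gnas, which switches on adenylyl cyclase. Adcy5 and Adcy6 encode the main cyclases of cardiomyocytes, and the cyclic AMP they make activates protein kinase A, which phosphorylates calcium-handling and sarcomere proteins and so raises the rate and force of contraction. Phosphodiesterases degrade cyclic AMP and keep its signal local. The alpha-1 receptors encoded by Adra1a and Adra1b act instead through Gq proteins and phospholipase C.

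With edgeR, 0 of the 9 genes were called different between genotypes at an adjusted p below 0.05, while 929 of 11563 tested genes (8.03%) were. Of all tested genes 4.7% were called higher in UtyGT and 3.34% lower. Values after ± are standard errors for log2 fold changes and SDs for means in CPM. Gnas had the greatest difference, at 177% of WT (log2 fold change 0.82 ± 0.26, n = 7 per genotype, adjusted p = 0.0592), and Adrb1 followed at 141% of WT (0.49 ± 0.19, adjusted p = 0.110). These were the 2 of 9 genes with an unadjusted p below 0.05, against 24.8% of all tested genes. DESeq2 called 1 of the 9 genes higher and 0 lower, against 6.38% and 5.98% of all genes it tested. Limma voom called 0, against 4.55% and 3.35%, and edgeR with surrogate variables, which are estimated from shared variation between libraries, called 2 higher and 1 lower, against 10.8% in each direction. The genotypes overlapped for all 9 genes, whereas they did not overlap for 2.14% of tested genes. The log2 fold change was above 0 for 6 genes and below 0 for 3, with a median of 0.15 against 0.01 over all tested genes. Each library was made from bulk tissue, so fewer cells of a type and less RNA per cell cannot be told apart.

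**Figure D1:**
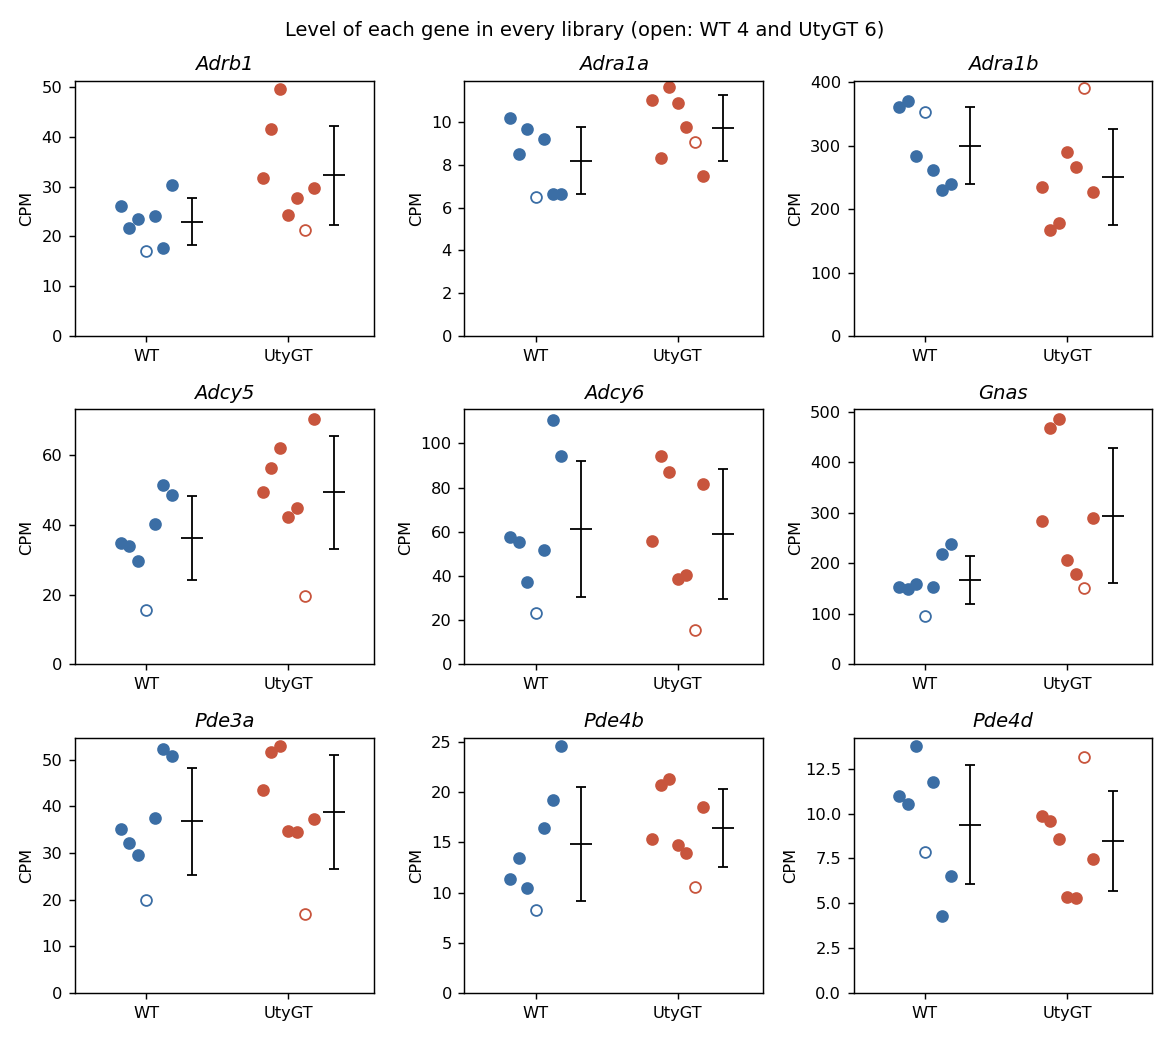
TMM-scaled CPM, the counts of a gene relative to all counts in a library, of the 9 genes in every library, with WT in blue, UtyGT in red, and the mean ± SD (n = 7) beside the points. Open circles mark WT 4 and UtyGT 6, which held the lowest level of their genotype for Adrb1, Adcy5, Adcy6, Gnas, Pde3a and Pde4b.

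Libraries are numbered as in the deposited table, and the numbers do not pair mice between genotypes. QuantSeq 3′ FWD libraries read the 3′ end of polyadenylated transcripts, and reads counted in genes numbered 6322161 to 9397378 (WT) and 6357485 to 10268706 (UtyGT). Every library matched its label for Uty, with 47 to 75 counts in each WT mouse and 1 to 6 counts in each UtyGT mouse. WT 4 and UtyGT 6 stood apart from the rest, together at the negative end of the leading principal component over tested genes (45.8% of the variance). The slope on transcript GC content was fitted to log2 CPM minus each gene's mean over all 14 libraries. Per 10 percentage points it ran from -0.08 to 0.32 in WT (mean 0.11) and from -0.29 to 0.14 in UtyGT (mean -0.11). It was highest within each genotype in WT 4 and UtyGT 6. Each slope is relative to the other libraries, so the genotype means have opposite signs by construction. Markers of ventricular cardiomyocytes were abundant, with 10 of 10 tested and a summed level of 68176 to 140825 CPM in WT and 66378 to 122231 CPM in UtyGT. Their highest sums were those of WT 4 and UtyGT 6, and 1 marker was called higher and 1 lower. Endothelial markers had sums of 1443 to 2190 CPM in WT (median 1547) and 971 to 2681 CPM in UtyGT (median 1954), with 2 of 10 called lower. The lowest endothelial sums were again those of WT 4 and UtyGT 6. Fabp4 was the most abundant of these markers, averaging 577 ± 338 CPM (WT) and 1080 ± 533 CPM (UtyGT), and so weighed most in the sums. Its log2 fold change with edgeR was 0.91 (adjusted p = 0.186) and that of Flt1 0.27 (0.276), while all other endothelial markers lay below 0. The part of Fabp4 in the low sums of WT 4 and UtyGT 6 was not tested. Red cell markers had 2 of 5 tested called lower, with sums of 3193 to 6876 CPM in WT and 1071 to 5118 CPM in UtyGT. The part of the marker sums in the results below was not tested.

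Of the receptors, Adrb1 (ENSMUSG00000035283, chromosome 19, 56722372 to 56724862, GRCm38, plus strand) was measured at 26.1, 21.7, 23.5, 17.0, 24.2, 17.6 and 30.4 CPM in WT 1 to 7. Its levels in UtyGT 1 to 7 were 31.7, 41.5, 49.6, 24.2, 27.6, 21.4 and 29.7 CPM. UtyGT 1, 2 and 3 lay above every WT library, and the other UtyGT libraries lay within the WT range. The means were 22.9 ± 4.70 and 32.2 ± 9.97 CPM, and the 95% interval of the fold, 1.07 to 1.84, left out equality before adjustment over all genes. Adrb1 was called higher with surrogate variables (adjusted p = 0.0411) or without UtyGT 6 (0.0319), with a range of 0.0319 to 0.248 over all alternatives. Its log2 fold change of 0.49 became 0.75 with a correction for GC content of transcripts and 0.31 with one for the last 500 nt alone.

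Adra1b (ENSMUSG00000050541, chromosome 11, 43774606 to 43901210, minus strand) was the receptor with the most counts, 1184 to 3712 per library. It was measured at 361, 370, 284, 353, 262, 230 and 240 CPM in WT 1 to 7 and at 235, 167, 177, 291, 266, 391 and 227 CPM in UtyGT 1 to 7. UtyGT 2, 3 and 7 lay below every WT library, but UtyGT 6 held the highest level of all. The means of 300.1 ± 60.3 and 251 ± 76.0 CPM did not differ beyond the spread between libraries (log2 fold change -0.26 ± 0.18, adjusted p = 0.384). Without UtyGT 6 the log2 fold change was -0.42 (adjusted p = 0.0585). Adra1a (ENSMUSG00000045875, chromosome 14, 66635251 to 66733462, plus strand) had 47 to 99 counts per library. Its levels were 10.2, 8.49, 9.66, 6.49, 9.19, 6.65 and 6.64 CPM in WT 1 to 7 and 11.0, 8.30, 11.7, 10.9, 9.75, 9.05 and 7.49 CPM in UtyGT 1 to 7. UtyGT 1, 3 and 4 exceeded the WT range, and the means of 8.19 ± 1.57 and 9.74 ± 1.54 CPM gave a log2 fold change of 0.25 ± 0.16 (adjusted p = 0.340).

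Other adrenergic receptors were close to undetected and did not have enough counts for a test. Adrb3, encoding the beta-3 receptor, had 8 counts over the WT libraries and 12 over the UtyGT libraries, and the alpha-2 receptor genes Adra2a, Adra2b and Adra2c had 7 and 4, 51 and 52, and 41 and 36. For Adra1d, 0 of the 110927885 counts of the series were found, and such a count allows a level of up to 0.0270 CPM, counting error only.

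Gnas (ENSMUSG00000027523, chromosome 2, 174284320 to 174346744, plus strand) had 697 to 4119 counts per library. Its levels were 153, 149, 159, 96.3, 153, 219 and 239 CPM in WT 1 to 7 and 283, 467, 485, 207, 180, 151 and 290 CPM in UtyGT 1 to 7. UtyGT 1, 2, 3 and 7 lay above every WT library, UtyGT 4, 5 and 6 lay among them, and 6 of 7 UtyGT libraries exceeded the WT median. On average WT libraries held 167 ± 47.8 CPM and UtyGT libraries 295 ± 134 CPM, a fold of 1.77 with a 95% interval of 1.21 to 2.57. The adjusted p of 0.0592 lay just above the threshold and ranged from 0.000244 to 0.157 over the alternatives. Gnas was called higher with DESeq2 (0.0238), with surrogate variables (0.000244), without WT 7 (0.0378), UtyGT 5 (0.0433) or UtyGT 6 (0.0179), and without WT 4 and UtyGT 6 together (0.0339). Its log2 fold change stayed above 0 in all 25 alternatives, from 0.60 to 1.05.

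Gnas is an imprinted locus that makes several transcripts from separate first exons joined to shared later exons, and only some of them encode the stimulatory alpha subunit. Of its 24 annotated transcripts, 16 are protein coding, and they have 12 distinct 3′ ends. The 3′ counts sum these transcripts, so the level above is that of the locus and not of the alpha subunit alone. The antisense gene Nespas and Gm20721, which overlap exons of Gnas on the opposite strand, had 2 and 5 counts in all 14 libraries.

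Sequence upstream of a start was available from RefSeq (GRCm38.p6) for 13 starts of 6 of the 9 genes. The promoters of Adrb1 and Gnas, the genes with the greatest differences, and of Pde4b, which varied together with Gnas across libraries, are printed because they held TGACG, the core of the cyclic AMP response element bound by CREB. They run from 250 bases before the start to the base before it, 5′ to 3′ on the plus strand, and capitals mark TGACG or its reverse complement CGTCA.
Adrb1 (chr19:56721867-56722116): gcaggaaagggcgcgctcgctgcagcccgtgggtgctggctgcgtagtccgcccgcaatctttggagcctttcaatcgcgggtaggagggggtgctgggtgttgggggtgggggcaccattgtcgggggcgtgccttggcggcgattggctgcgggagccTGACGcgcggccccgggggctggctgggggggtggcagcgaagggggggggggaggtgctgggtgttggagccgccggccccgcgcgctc
Gnas (chr2:174329756-174330005): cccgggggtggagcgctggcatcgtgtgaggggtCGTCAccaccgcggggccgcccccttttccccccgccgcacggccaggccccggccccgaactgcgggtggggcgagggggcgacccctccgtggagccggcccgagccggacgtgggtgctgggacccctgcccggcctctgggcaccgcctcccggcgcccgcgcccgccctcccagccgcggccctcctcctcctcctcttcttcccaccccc
Pde4b (chr4:102421305-102421554): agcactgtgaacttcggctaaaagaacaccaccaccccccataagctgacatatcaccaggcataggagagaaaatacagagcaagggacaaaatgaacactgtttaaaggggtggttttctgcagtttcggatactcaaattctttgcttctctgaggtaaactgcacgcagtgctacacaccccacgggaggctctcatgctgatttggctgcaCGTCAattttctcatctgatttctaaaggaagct
The core lay on the plus strand in Adrb1, with its leftmost base 90 bases before the start, and on the minus strand in Gnas and Pde4b, at 216 and 34 bases. The Gnas start shown is the most downstream of 4. Both strands were searched from 250 bases before to 50 bases after each start, and the core was found at 5 of 13 starts of these genes, 3 of Gnas, of which 2 share 1 match in overlapping windows, 1 of Adrb1 and 1 of 4 of Pde4b. It was found in 20.8% of all 32851 promoters of this length. The full element TGACGTCA, which contains the core on either strand, was found in 1.79% of all promoters and at none of the 13. A match is a match of letters only.

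Of the cyclases, Adcy5 (ENSMUSG00000022840, chromosome 16, 35154877 to 35305737, plus strand) was measured at 34.6, 34.0, 29.5, 15.6, 40.1, 51.3 and 48.6 CPM in WT 1 to 7. Its levels in UtyGT 1 to 7 were 49.4, 56.1, 61.9, 42.3, 44.8, 19.7 and 70.2 CPM. UtyGT 2, 3 and 7 lay above the WT range and UtyGT 6 lay near its lower end. The means were 36.2 ± 12.1 and 49.2 ± 16.3 CPM (log2 fold change 0.44 ± 0.25, adjusted p = 0.295). The log2 fold change was 0.26 with surrogate variables and 0.70 with a correction for transcript GC content, and Adcy5 was called in none of the alternatives (adjusted p 0.0641 to 0.499).

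Adcy6 (ENSMUSG00000022994, chromosome 15, 98589994 to 98607633, minus strand) varied most between libraries of a genotype. Its levels were 57.6, 55.5, 37.1, 23.1, 51.6, 111 and 94.4 CPM in WT 1 to 7 and 56.0, 94.1, 87.3, 38.8, 40.5, 15.4 and 81.4 CPM in UtyGT 1 to 7. The highest WT library was 4.80 times the lowest, and the highest UtyGT library 6.12 times the lowest. The means of 61.4 ± 30.9 and 59.1 ± 29.4 CPM were indistinguishable (log2 fold change -0.06 ± 0.36, adjusted p = 0.942), but the 95% interval of the fold, 0.566 to 1.63, left room for a change in either direction. The sign turned with both GC corrections and without any of WT 6, WT 7, UtyGT 4, UtyGT 5 or UtyGT 6 (up to 0.15), and with surrogate variables Adcy6 was called lower (-0.38, adjusted p = 0.0140).

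Among the phosphodiesterases, Pde3a, which encodes a cyclic GMP-inhibited enzyme that limits contractility (ENSMUSG00000041741, chromosome 6, 141249269 to 141507448, plus strand), was measured at 35.0, 32.2, 29.5, 20.03, 37.5, 52.3 and 50.7 CPM in WT 1 to 7. Its levels in UtyGT 1 to 7 were 43.5, 51.8, 52.9, 34.8, 34.5, 16.9 and 37.2 CPM. The ranges almost coincided, with means of 36.8 ± 11.5 and 38.8 ± 12.3 CPM (log2 fold change 0.08 ± 0.23, adjusted p = 0.871). The sign of this value turned with surrogate variables, with both GC corrections, or without WT 4, UtyGT 2 or UtyGT 3 (down to -0.10). Its exons overlap those of the antisense gene Gm28523, which had 112 counts in all libraries against 1983 of Pde3a in WT and 2144 in UtyGT. Gm28523 reaches only to 141250009, so the overlap lies at the 5′ end of Pde3a. Without a settled strand setting, reads within the overlap cannot be told apart.

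Pde4b and Pde4d encode cyclic AMP-specific enzymes that act near calcium channels and the ryanodine receptor. Pde4b (ENSMUSG00000028525, chromosome 4, 102087543 to 102607259, plus strand) was measured at 11.4, 13.4, 10.5, 8.29, 16.4, 19.2 and 24.6 CPM in WT 1 to 7 and at 15.3, 20.7, 21.3, 14.7, 13.98, 10.5 and 18.5 CPM in UtyGT 1 to 7. Every UtyGT library lay within the WT range, although 6 of 7 exceeded the WT median (means 14.8 ± 5.66 and 16.4 ± 3.90 CPM, log2 fold change 0.15 ± 0.22, adjusted p = 0.720). Pde4d (ENSMUSG00000021699, chromosome 13, 108449948 to 109953461, plus strand) had 33 to 125 counts per library. Its levels were 11.0, 10.6, 13.7, 7.87, 11.8, 4.30 and 6.50 CPM in WT 1 to 7 and 9.85, 9.57, 8.60, 5.37, 5.29, 13.2 and 7.49 CPM in UtyGT 1 to 7. Here too every UtyGT library lay within the WT range, and 1 of 7 exceeded the WT median (means 9.39 ± 3.29 and 8.47 ± 2.76 CPM, log2 fold change -0.15 ± 0.25, adjusted p = 0.759). Pde4b has 13 and Pde4d 20 annotated transcripts, with 13 distinct 3′ ends each, which the counts add up.

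**Figure D2:**
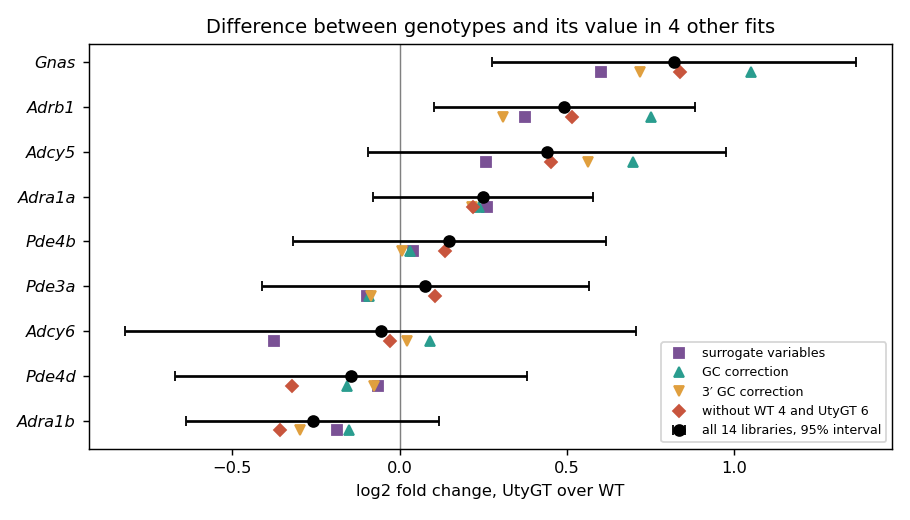
Log2 fold change (UtyGT over WT) of each gene with its 95% interval from the edgeR fit of all 14 libraries (black), and the value in 4 other fits (coloured). The intervals of Gnas and Adrb1 lie above 0 before adjustment, those of the other 7 genes include 0, and values of Adcy6 and Pde3a fall on both sides of 0.

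The spread between libraries of a genotype set what could be seen. With 1 library per mouse, differences between mice and between library preparations cannot be told apart. The coefficient of variation (SD over mean) of the 9 genes was 19.2% to 50.2% in WT and 15.9% to 49.8% in UtyGT, against medians of 19.9% and 21.1% over the 6932 tested genes in the same range of mean CPM. After the genotype mean was taken from log2 CPM, Adcy5, Adcy6, Gnas, Pde3a and Pde4b rose and fell together over the 14 libraries, with Pearson's r of 0.81 to 0.96 and Spearman's rho of 0.83 to 0.93 in their 10 pairs. The greatest permutation p of r among these pairs, adjusted over all 36 pairs of the 9 genes, was 0.000660. These 5 genes were not a group set in advance, and the share of other gene pairs with such r was not computed. The leading principal component over tested genes held 45.8% of the variance. In WT 4 these 5 genes stood at 41.5% to 63.0% of the WT median, and in UtyGT 6 at 27.4% to 68.8% of the UtyGT median. They were high in WT 6, WT 7, UtyGT 2 and UtyGT 3. The relation did not rest on WT 4 and UtyGT 6 alone, since r was 0.68 to 0.91 in these pairs without them. WT 4 and UtyGT 6 were also the 2 libraries farthest from the median of the first gene in most of these pairs. The exceptions were Gnas with Pde3a and with Pde4b, where UtyGT 3 and UtyGT 2 lay farthest. Without UtyGT 3 and UtyGT 2, r was 0.89 and 0.86 in these exceptions.

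Adra1b ran opposite to all 5, with r of -0.89 to -0.77 and rho of -0.88 to -0.75 (greatest adjusted permutation p of r 0.00290). It was lowest in UtyGT 2 and highest in UtyGT 6, where it stood at 166% of the UtyGT median. Without the 2 farthest libraries r was -0.83 to -0.68. Adrb1 went with Gnas (r = 0.81, rho = 0.75, adjusted permutation p 0.00499 and 0.0116) and had r of 0.61 to 0.69 with the other 4 (adjusted permutation p 0.0208 to 0.0495, and 0.0640 to 0.111 for rho of 0.53 to 0.60). Its r was 0.67 with Gnas and 0.44 to 0.51 with the others without UtyGT 3 and UtyGT 6. Without WT 4 and UtyGT 6, which were chosen after seeing the data, it was 0.70 with Gnas, 0.27 with Adcy5 and 0.40 to 0.47 with Adcy6, Pde3a and Pde4b. Within WT it was 0.33 to 0.48 with these 5 genes and within UtyGT 0.71 to 0.95. For Adra1a and Pde4d, no adjusted permutation p of r was below 0.237 in any pair that held either of them. The values of Adra1a turned on WT 4 and UtyGT 6, as its r over all 14 libraries was -0.01 with Adcy5, -0.14 with Adcy6 and -0.22 with Pde4b, and without those libraries -0.71, -0.66 and -0.65.

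**Figure D3:**
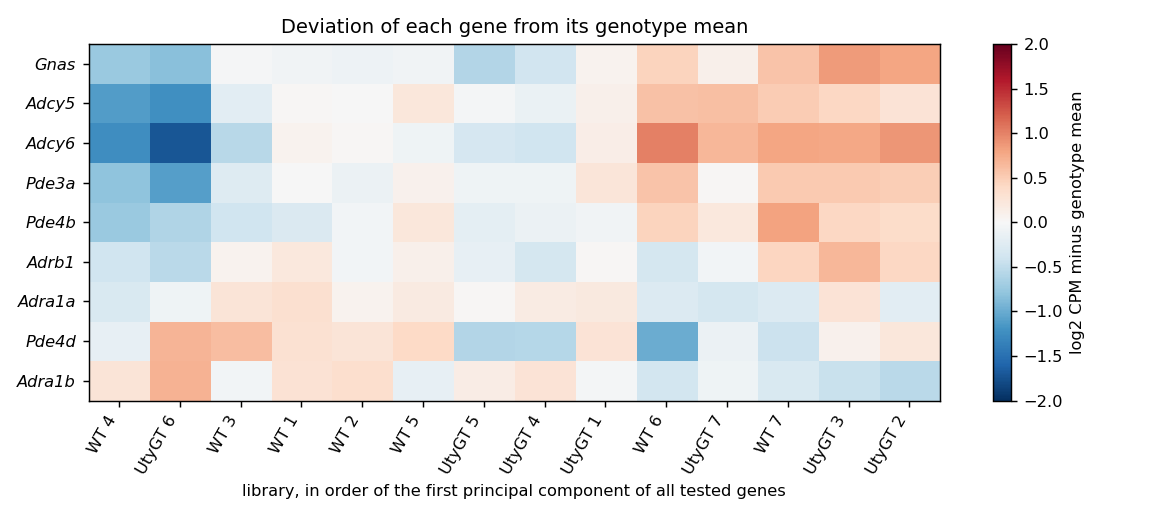
Log2 CPM minus the genotype mean for the 9 genes (rows) in the 14 libraries (columns), which are placed in order of the first principal component of all tested genes. Gnas, Adcy5, Adcy6, Pde3a and Pde4b are low in WT 4 and UtyGT 6 on the left and high in WT 7, UtyGT 3 and UtyGT 2 on the right, and Adra1b runs the other way.

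The same genes moved with a property of the whole library, which is estimated from the tested genes themselves. The share of other tested genes that follow it as closely was not computed. The GC slope of a library, taken as its deviation from the genotype mean, was related to the level of Adcy6 (r = -0.97, rho = -0.95), Pde3a (-0.95 and -0.91), Gnas (-0.94 and -0.91), Adcy5 (-0.92 and -0.90) and Pde4b (-0.91 and -0.88), with permutation p adjusted over 9 genes of at most 7.2e-05 for r and 0.000198 for rho. Adra1b had r = 0.82 and rho = 0.71 (adjusted 0.00108 and 0.0114) and Adrb1 r = -0.74 and rho = -0.70 (0.00593 and 0.0114). Adra1a (r = 0.08, rho = 0.04, adjusted 0.787 and 0.895) and Pde4d (0.33 and 0.31, adjusted 0.304 and 0.345) did not pass the test. Without WT 4 and UtyGT 6, the libraries farthest from the median slope, r was -0.95 to -0.84 for the first 5 genes, 0.73 for Adra1b, -0.58 for Adrb1, 0.51 for Adra1a and 0.23 for Pde4d. Within genotypes r was -0.97 to -0.91 in WT and -0.99 to -0.91 in UtyGT for the first 5 genes. The mean slope, relative to all 14 libraries, was 0.11 in WT and -0.11 in UtyGT. GC content of the longest transcript was 55.4% for Adcy6, 43.05% for Pde3a, 57.8% for Gnas, 59.5% for Adcy5 and 45.9% for Pde4b. It was 54.5% for Adra1b, 58.8% for Adrb1, 50.1% for Adra1a and 49.8% for Pde4d. The part of a gene's own GC content in these relations was not tested. With the correction for GC content of transcripts the log2 fold change of Gnas was 1.05 (adjusted p = 0.0660), and with that for the last 500 nt it was 0.72 (0.0768).

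Among 4929 or 4930 candidate genes averaging 20 CPM or more, those most like Gnas in their deviations over the 14 libraries were Etfa and Eci1, of mitochondrial fatty acid oxidation (r = 0.98 and 0.97). Those most like Adcy5 were Pfn2 and Hibadh (both 0.98), most like Adcy6 Tsnax and 2810403A07Rik (both 0.99), most like Pde3a Pcyox1 and Tmem126a (0.99 and 0.98), and most like Pde4b Akirin2 and Efr3a (both 0.98). Adra1b was closest to Tmem14c and Emc1 (0.98 and 0.97). For Adrb1, Adra1a and Pde4d the closest genes were less similar, namely Dip2c and the calmodulin gene Calm3 (0.87 and 0.86), Bptf and Clip1 (0.87 and 0.86), and Kctd9 and Ppp2r2d (0.87 and 0.86). These values are descriptions, as all genes share the same libraries.

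The rest of the pathway was examined in 91 further genes in 11 lists, of which 72 had enough counts to be tested. With edgeR, 6 of the 72 were called higher in UtyGT and 3 lower, or 12.5% against 8.03% of all tested genes, with a median log2 fold change of -0.07. The phosphodiesterase gene Pde3b, whose product also degrades cyclic AMP and is known for its role in insulin action, was the only 1 of 11 tested phosphodiesterases outside the 9 genes to be called with edgeR, DESeq2 or limma voom. With surrogate variables Pde1a and Pde7b were called higher as well, where 10.8% of all tested genes were. Pde3b was measured at 5.62, 5.28, 4.76, 1.93, 4.36, 5.74 and 5.23 CPM in WT 1 to 7 and at 8.78, 12.1, 8.36, 9.81, 9.75, 8.10 and 9.01 CPM in UtyGT 1 to 7. The genotypes did not overlap, as for 2.14% of all tested genes, with means of 4.70 ± 1.31 and 9.42 ± 1.35 CPM (log2 fold change 0.996 ± 0.196, adjusted p = 0.00769). Although counts per library were only 14 to 46 in WT and 64 to 86 in UtyGT, Pde3b was called in all 25 alternatives (adjusted p 6.2e-05 to 0.0210).

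A-kinase anchoring proteins tether protein kinase A to its sites of action. With edgeR 2 of 10 tested were called higher and 0 lower, against 4.7% and 3.34% of all tested genes. With surrogate variables 3 were called higher, with Akap6 as the third, and 1, Akap1, lower, against 10.8% of all tested genes in each direction. Akap8, a nuclear anchoring protein gene, was higher in UtyGT by 0.71 ± 0.13 on the log2 scale (adjusted p = 0.00548), at 26.9 ± 2.98 against 16.5 ± 2.97 CPM, with 13.2 to 19.6 CPM in WT and 22.8 to 29.9 CPM in UtyGT. Akap9, whose product anchors the kinase at the Golgi and centrosome and at the Kcnq1 potassium channel, was higher by 0.67 ± 0.13 (adjusted p = 0.00571), at 96.5 ± 11.5 against 60.6 ± 10.9 CPM, with 48.9 to 75.6 CPM in WT and 81.5 to 111 CPM in UtyGT. The genotypes did not overlap for either gene, as for 2.14% of all tested genes, and both were called in all 25 alternatives. Exons of Akap9 overlap those of Cyp51 on the opposite strand, and the 8718 counts of Akap9 and 2726 of Cyp51 could be mixed if strand was not used.

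Of 10 tested protein kinase A targets of the cardiomyocyte, 2 were called higher and 1 lower, against 4.7% and 3.34% of all tested genes. Their median log2 fold change was -0.16. Cacnb2, encoding the beta subunit of the L-type calcium channel, stood at 69.3 ± 10.9 CPM in UtyGT against 48.8 ± 5.04 CPM (higher by 0.50 ± 0.12 on the log2 scale, adjusted p = 0.0186). In UtyGT 6 it stood at 47.9 CPM, within the WT range of 39.5 to 54.6 CPM, and in the other UtyGT libraries at 62.0 to 77.2 CPM. Ryr2, the calcium release channel of the sarcoplasmic reticulum, rose from 596 ± 55.6 CPM to 801 ± 127 (0.42 ± 0.12, adjusted p = 0.0347), and 6 of 7 UtyGT libraries exceeded the WT range of 519 to 680 CPM. Fxyd1, encoding the sodium pump regulator phospholemman, fell from 221 ± 48.9 to 146 ± 18.4 CPM (-0.60 ± 0.14, adjusted p = 0.0160), with 154 to 306 CPM in WT and 123 to 174 CPM in UtyGT. The Cacnb2 call ended with a correction for transcript GC content (log2 fold change 0.32, adjusted p = 0.0544), and the Fxyd1 call ended with that correction (-0.36, adjusted p = 0.0603) and with the one for the last 500 nt (-0.22, adjusted p = 0.196). The Ryr2 call ended with both GC corrections, without a count filter, and when WT 2, 3, 4, 5 or 6, or UtyGT 1, 2, 3 or 7, was left out (0.0555 to 0.189).

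Of 6 tested transcription factors and coactivators of the pathway, 1 was called higher and 1 lower, against 4.7% and 3.34% of all tested genes. Crebbp, encoding the coactivator CBP, stood at 89.5 ± 8.21 CPM in UtyGT against 65.9 ± 12.1 CPM (higher by 0.44 ± 0.12 on the log2 scale, adjusted p = 0.0326), with all UtyGT libraries above the WT median and 4 of 7 above the WT range. Crtc1, encoding a coactivator of CREB, fell from 6.25 ± 1.54 to 3.68 ± 1.31 CPM (-0.76 ± 0.23, adjusted p = 0.0475), from 26 to 68 counts in a WT library and 19 to 59 in a UtyGT library. The Crebbp call ended without a count filter and when WT 2, 4, 5 or 6, or UtyGT 1, 2, 3 or 4, was left out (0.0529 to 0.0780). The Crtc1 call ended without a count filter, with both GC corrections, and when any WT library but WT 7, or any UtyGT library but UtyGT 6, was left out (0.0561 to 0.150), and its log2 fold change was -0.43 with the correction for the last 500 nt.

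Among 8 other tested G protein subunits, 1 was called lower with edgeR, where 3.34% of all tested genes were. With surrogate variables Gnb2 was called lower as well, where 10.8% of all tested genes were. Gna11, which encodes an alpha subunit of the Gq class through which alpha-1 receptors signal, stood at 76.3 ± 10.1 CPM in UtyGT against 105 ± 14.7 CPM (log2 fold change -0.46 ± 0.12, adjusted p = 0.0250). Its levels were 85.1 to 129 CPM in WT and 63.9 to 93.4 CPM in UtyGT, and 6 of 7 UtyGT libraries lay below the WT range. The call ended with both GC corrections (log2 fold changes of -0.26 and -0.25) and when WT 3 or 4, or UtyGT 2, 3 or 7, was left out (0.05001 to 0.0849).

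Of the protein kinase A subunits and inhibitors, 0 of 6 tested were called with edgeR or limma voom, with a median log2 fold change of -0.28. An unadjusted p below 0.05 was found for 4 of them with edgeR, against 24.8% of all tested genes. With DESeq2, and likewise with surrogate variables, 3 were called lower, where 5.98% and 10.8% of all genes were. These were the catalytic subunit gene Prkaca (508 CPM in WT and 389 CPM in UtyGT, edgeR log2 fold change -0.39 ± 0.14, adjusted p = 0.0914), the regulatory subunit gene Prkar2a (153 and 126 CPM, -0.27 ± 0.09, adjusted p = 0.0805) and the kinase inhibitor gene Pkig (389 and 320 CPM, -0.28 ± 0.11, adjusted p = 0.114), named after their values were seen. Among the other adenylyl cyclases 0 of 5 were called with edgeR, DESeq2 or limma voom, and 1 had an unadjusted p below 0.05. With surrogate variables 1 was called higher, where 10.8% of all genes were. Among receptor kinases, arrestins and RGS proteins 0 of 9 were called with these 3 tools. In this list 1 had an unadjusted p below 0.05 and 1 was called lower with surrogate variables, against 24.8% and 10.8% of all tested genes. Of 5 other cyclic AMP binding proteins 0 were called and 0 had an unadjusted p below 0.05. With surrogate variables 1 of them was called lower, where 10.8% of all tested genes were. The Gi-coupled receptor genes Chrm2 and Adora1 were called by none of these tools, with 0 unadjusted p below 0.05.

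**Figure D4:**
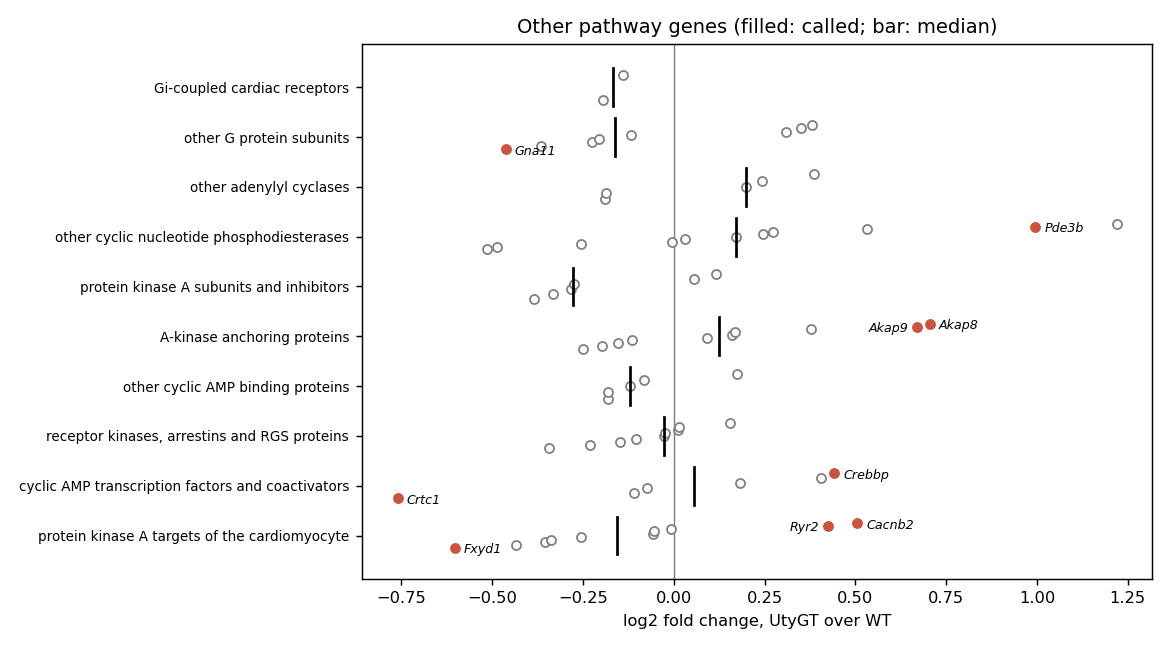
Log2 fold change (UtyGT over WT) of the 72 other tested genes of the pathway by list, with a bar at each list median. The 9 genes called at an adjusted p below 0.05 are filled and named, with 6 to the right of 0 and 3 to the left.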

How the data were processed

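RNA was measured in left ventricles of 14 mice, 7 per genotype, with QuantSeq 3′ FWD libraries. The deposited values are counts per gene. The authors' methods name the Bluebee platform for alignment to GRCm38/mm10 and, for the counting, featureCounts 1.6.0 with an Ensembl annotation. CASAVA 1.4, FastQC, STAR and DESeq2 1.22.2 stand in the submitters' processing notes too. The deposited table holds 5 entries naming no gene, in the form htseq-count writes, with a share of 45.9% to 49.1% of a library. They entered neither totals nor tests, and which counter and which strand setting was used remains unsettled. Its columns of the mean, fold change, error, statistic and p-values of the authors' own comparison were not used. Columns were assigned to genotypes, not to single mice, as their numbers match no label.

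Genes were kept by filterByExpr (minimum count 10), scaled by TMM and compared in R 4.3.3 with edgeR 4.0.16 (quasi-likelihood F test, robust fit; limma 3.58.1), with no term but genotype and p-values adjusted over 11563 genes by the Benjamini-Hochberg procedure. Intervals of 95% include the spread between libraries. The 9 genes and all lists were chosen with earlier results of these data known. Genes named besides the 9 were Uty, called genes of the pathway lists and receptors near 0. The 2 tested genes of at least 20 CPM most correlated with each of the 9 were named too. So were Chrm2 and Adora1, which make up their list. Ddx3y, Prkaca, Prkar2a, Pkig, Pde1a, Pde7b, Akap1, Akap6, Gnb2, Fabp4, Flt1 and the genes overlapping those named were added after their values were seen. Gnai3 and Pde2a were not analysed here. A result of the pathway lists is not reported here. Correlations over libraries were planned as descriptions, and permutation tests (100000 permutations within genotypes, two-sided, smallest p 1e-05) were added. Alternatives were DESeq2 1.42.0, limma voom, RLE and no composition scaling, no count filter, a filter at 1 CPM, removal of abundant and mitochondrial genes, surrogate variables (sva 3.50.0, 1 found), a GC correction by lowess (span 0.3) on GENCODE M21 transcripts, and leaving out each library. The same correction on the last 500 nt of transcripts (3′ GC) and leaving out WT 4 and UtyGT 6 together were chosen after seeing the data. Within genotypes, pairs of libraries gave chi-square values of 8.29 to 176 per gene, far above sampling noise. The fit was tested on simulated counts. No source used here mentions molecular identifiers, and the floor for 0 counts covers counting error only.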

Additional observations from a re-analysis of the deposited data

Results flagged for a closer look

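Among 38 sets of 7 libraries (the 9 genes, Uty and the 9 called pathway genes in each genotype), 2 held a library far from the others by Dixon's test, which chance alone passes in about 5% of sets. Both were sets of Pde3b. In WT 4 Pde3b was measured at 1.93 CPM, against 4.36 CPM in the next lowest WT library, and in UtyGT 2 at 12.1 CPM, against 9.81 CPM in the next highest UtyGT library. WT 4 was also the lowest WT library for 7 of the 9 genes, all but Adra1b and Pde4d.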

How the results depend on the processing

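Of the 9 genes, Adra1a, Adra1b, Adcy5, Pde4b and Pde4d kept their direction and stayed uncalled in all 25 alternatives. Gnas kept its direction and was called with DESeq2 (log2 fold change 0.80), surrogate variables (0.60) and without WT 4 and UtyGT 6 (0.84), and ranged from 0.66 to 0.93 when single libraries were left out. Adrb1 was called with surrogate variables (0.38) and ranged from 0.36 to 0.57 without single libraries. Adcy6 changed sign with GC correction (0.091), 3′ GC correction (0.022) and without any 1 of WT 6, WT 7, UtyGT 4, UtyGT 5 and UtyGT 6 (range -0.21 to 0.15), and was -0.38 with surrogate variables. Pde3a changed sign with surrogate variables (-0.10), GC correction (-0.091), 3′ GC correction (-0.087) and without WT 4, UtyGT 2 or UtyGT 3 (range -0.045 to 0.19). The cause was not tested. The number of the 9 genes called higher, 0 in the report, was 1 with DESeq2, 2 with surrogate variables, 1 without WT 4 and UtyGT 6, and 0 to 2 without single libraries, and the number called lower was 1 with surrogate variables.

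Of the other pathway genes, 6 higher and 3 lower in the report, surrogate variables gave 10 and 10, DESeq2 gave 6 lower, GC correction gave 0 lower, and leaving out single libraries gave 4 to 6 higher and 1 to 7 lower. Over all genes, 543 higher and 386 lower in the report, no count filter gave 337 higher, surrogate variables 1251 and 1244, GC correction 309 and 247, DESeq2 669 lower and leaving out WT 4 and UtyGT 6 834 lower. Without single libraries these were 276 to 919 higher and 146 to 1329 lower, both highest without UtyGT 6. No paired analysis was possible because the labels give no replicate number shared between genotypes. Low counts limit Pde4d, Adra1a, Pde3b and Crtc1, and the transcripts of Gnas, Pde4b and Pde4d are not separated.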
